A study of Mus musculus with 12 samples.

Results

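Genes of the endothelial cells that line blood vessels, and the VEGF growth factors that act on them, were followed through tibialis anterior, a shin muscle of the mouse. The set comprised the receptors Kdr, Flt1, Tek and Tie1, the junction and surface genes Pecam1, Cdh5 and Esam, the secreted Vwf, and the ligands Vegfa and Vegfb. They were taken by symbol and not by a measured value, though with earlier results of these data known. All 10 were present among the 22607 genes of the count table, and all 10 passed the filter on low counts that left 16007 genes for testing. The muscles carried a GFP vector without further insert or a Crtc2 vector, which adds the coactivator protein that works with Creb1. Each vector was studied under feeding ad libitum and after 3 rounds of alternate day fasting (ADF). This gave 4 groups of 3 libraries, fed and ADF muscle with GFP and fed and ADF muscle with Crtc2, all from C57BL/6 males aged 13 weeks. The fed GFP group is thus a transduced control and not untouched muscle. The labels do not give the delivery of the vector, its promoter or the cells it reached, nor whether ADF muscle was taken on a fasted or a fed day. Separate animals are not stated either, so p-values reflect only how much the libraries varied, and that variation may be technical.

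Vegfa and Vegfb are secreted proteins that muscle fibres make in quantity. Vegfa signals to endothelium mainly through Kdr, also called VEGF receptor 2, and is required to keep muscle capillaries. Flt1, VEGF receptor 1, binds Vegfa tightly with weak signalling and is the receptor of Vegfb. Tek is the receptor of the angiopoietins and Tie1 its partner. Cdh5, Pecam1 and Esam hold endothelial cells together at their junctions, and Vwf is the clotting protein stored in endothelial granules.

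Total counts per library ranged from 24232450 to 34610417, and 14313 to 17226 genes were detected in a library. Between 68.9 and 74.7% of the counts from 2 to 21 were even numbers, whose cause was not tested. If fragments were often counted in pairs, low counts stand for fewer fragments than printed. The 10 fast fibre genes that define the labelled tissue were present in every group, with a summed level of 128000 to 230000 CPM, counts scaled to library size, in a library. Among them Acta1 was called higher and Mylpf lower with ADF under each vector in edgeR. The mean of Acta1 was 23200 CPM in fed GFP and 50000 CPM in ADF GFP muscle. With 1 library left out, the Mylpf call passed in 11 of 12 fits with GFP and 7 of 12 with Crtc2. The protocols name 2 library preparation kits without assigning them, and a preparation that followed the diet could not be told apart from the diet. Crtc2 itself lay between 16.1 and 29.2 CPM in the 6 GFP libraries and between 31.4 and 77.9 CPM in the 6 Crtc2 libraries, without overlap. The vector raised it 2.34-fold over both diets (adjusted p = 0.00578, edgeR). Within fed muscle it was 2.85-fold higher (adjusted p = 0.134) and under ADF 1.93-fold (adjusted p = 0.127), both short of the threshold in edgeR, while DESeq2 called both (adjusted p = 5.59e-05 and 0.0234).

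The promoters of the ligands and of the VEGF receptors are shown because the ligands and Kdr were called between the diets, because Flt1 is the receptor to which Kdr is compared, and because Crtc2 is known to act at the cyclic AMP response element (CRE) that Creb1 binds. RefSeq windows for GRCm38.p6 were matched for 6 of the 10 genes, Kdr, Flt1, Tek, Tie1, Vegfa and Vegfb. Those for Pecam1, Cdh5, Esam and Vwf were not matched. Each printed sequence is the 250 bases before the RefSeq start, read on the gene's own strand, which is the minus strand for all 4 genes. They span chr17:46032378-46032627 for Vegfa, chr19:6987652-6987901 for Vegfb, chr5:75978456-75978705 for Kdr and chr5:147726012-147726261 for Flt1. Capitals mark matches on either strand to the CRE TGACGTCA, its half-site TGACG, the hypoxia element core ACGTG, the ETS cores AGGAAG and CGGAAG, the GC box GGGCGG or its complement CCGCCC, and the TATA box TATAAA.
Vegfa: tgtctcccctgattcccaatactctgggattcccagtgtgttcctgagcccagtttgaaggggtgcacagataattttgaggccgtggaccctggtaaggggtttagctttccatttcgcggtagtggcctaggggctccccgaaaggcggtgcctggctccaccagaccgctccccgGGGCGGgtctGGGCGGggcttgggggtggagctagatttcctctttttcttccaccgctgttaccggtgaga
Vegfb: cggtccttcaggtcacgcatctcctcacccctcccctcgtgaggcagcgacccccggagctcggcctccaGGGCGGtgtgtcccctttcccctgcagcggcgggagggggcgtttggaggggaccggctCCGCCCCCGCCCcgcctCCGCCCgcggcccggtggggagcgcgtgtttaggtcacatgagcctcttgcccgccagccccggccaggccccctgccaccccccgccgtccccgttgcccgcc
Kdr: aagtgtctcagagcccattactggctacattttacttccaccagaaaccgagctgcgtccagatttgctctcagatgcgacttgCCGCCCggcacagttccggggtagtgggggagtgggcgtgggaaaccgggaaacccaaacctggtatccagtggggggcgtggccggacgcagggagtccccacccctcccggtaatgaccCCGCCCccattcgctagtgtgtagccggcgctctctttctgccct
Flt1: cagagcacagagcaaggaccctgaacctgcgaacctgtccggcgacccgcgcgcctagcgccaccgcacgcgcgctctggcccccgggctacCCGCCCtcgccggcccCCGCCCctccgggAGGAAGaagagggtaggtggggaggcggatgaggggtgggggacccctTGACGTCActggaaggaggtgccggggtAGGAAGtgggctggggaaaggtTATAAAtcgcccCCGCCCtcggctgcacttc

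Among the 6 genes, Flt1 alone held the full CRE, from -81 to -74 counted back from the start, where -1 is the last base shown. Of all 32851 windows of this length, 1.55% held it. It overlaps both half-sites found in the Flt1 window, TGACG on the plus strand and on the minus strand, and 17.8% of all windows held at least 1 half-site. Flt1 also had an AGGAAG core from -129 to -124 and another from -53 to -48, a sequence present in 29.5% of windows. Its TATAAA lay from -31 to -26, against 12.4% of windows with this sequence. GC boxes, present in 32.7% of windows, occurred at 2 places in the Vegfa window, 2 in Kdr, 3 in Flt1 and 4 in Vegfb. A second RefSeq start of Vegfa, inside the gene, had a half-site at -209 that overlaps an ACGTG at -211, a sequence present in 16.6% of windows. These matches describe letters, not bound sites, and no binding was measured.

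Vegfa, the ligand of Kdr, fell with ADF under both vectors. The gene lies at chromosome 17, 46016993 to 46032369 (GRCm38, minus strand). Its level in the 3 fed GFP libraries was 477, 316 and 400 CPM, and in the 3 ADF GFP libraries 152, 131 and 121 CPM. With Crtc2 it was 612, 479 and 436 CPM in fed and 179, 179 and 216 CPM in ADF muscle. Every fed library was thus above every ADF library, under either vector. In GFP muscle Vegfa fell 2.95-fold under ADF, from 397 ± 80.7 to 135 ± 15.7 CPM (SD, n = 3 each), a log2 fold change of -1.56 ± 0.19 (SE) with a 95% interval of -1.96 to -1.16 and an adjusted p of 2.04e-05 (edgeR). It fell 2.66-fold in Crtc2 muscle, from 509 ± 91.8 to 191 ± 21.4 CPM, with a log2 fold change of -1.41 ± 0.19 (adjusted p = 3.61e-05, edgeR). Both falls passed the threshold with any single library left out. Under ADF the 3 Crtc2 libraries were above the 3 GFP libraries, but the difference of 0.50 ± 0.19 on the log2 scale did not pass the test (adjusted p = 0.295, edgeR). The fed groups overlapped.

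Vegfb, on chromosome 19 (6982473 to 6987651, minus strand), rose with ADF in Crtc2 muscle. It measured 110, 111 and 137 CPM in fed GFP and 167, 145 and 110 CPM in ADF GFP muscle. In Crtc2 muscle it measured 126, 111 and 113 CPM when fed and 219, 209 and 266 CPM under ADF. The 3 ADF Crtc2 libraries stood above the other 9, and the remaining groups overlapped. The rise with ADF in Crtc2 muscle was 1.98-fold, a log2 fold change of 0.99 ± 0.19 with a 95% interval of 0.59 to 1.39 (adjusted p = 0.00144, edgeR), and it passed with any single library left out. In GFP muscle the difference was 0.24 ± 0.19 (adjusted p = 0.57, edgeR). The test of the difference between these diet responses gave 0.75 ± 0.27, with an unadjusted p of 0.0107 and an adjusted p of 0.54 (edgeR), so the data do not show that they differ. Over both vectors Vegfb was higher under ADF by 0.61 ± 0.13 (adjusted p = 0.00239, edgeR) and Vegfa lower by the larger log2 change of -1.49 ± 0.13 (adjusted p = 7.32e-08, edgeR).

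The ratio of the ligands parted the diets. Per kilobase of exon, fed GFP libraries had 1.63, 1.06 and 1.09 times as many Vegfa as Vegfb counts, and fed Crtc2 libraries 1.83, 1.61 and 1.45 times. The ratio was 0.34, 0.341 and 0.414 in ADF GFP and 0.306, 0.32 and 0.304 in ADF Crtc2 libraries. Per kilobase, Vegfa therefore exceeded Vegfb in each fed library and was below it in each ADF library. The side of 1 depends on the exon lengths used, 4285 bases for Vegfa and 1605 for Vegfb over all annotated transcripts. In counts not divided by length, ADF GFP replicate 3 had 4460 for Vegfa and 4040 for Vegfb. This ratio is a description without a test, and it does not depend on how libraries are scaled to each other. Vegfa alone already parted the diets, and how often ratios of other gene pairs do so was not computed.

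**Figure D1:**
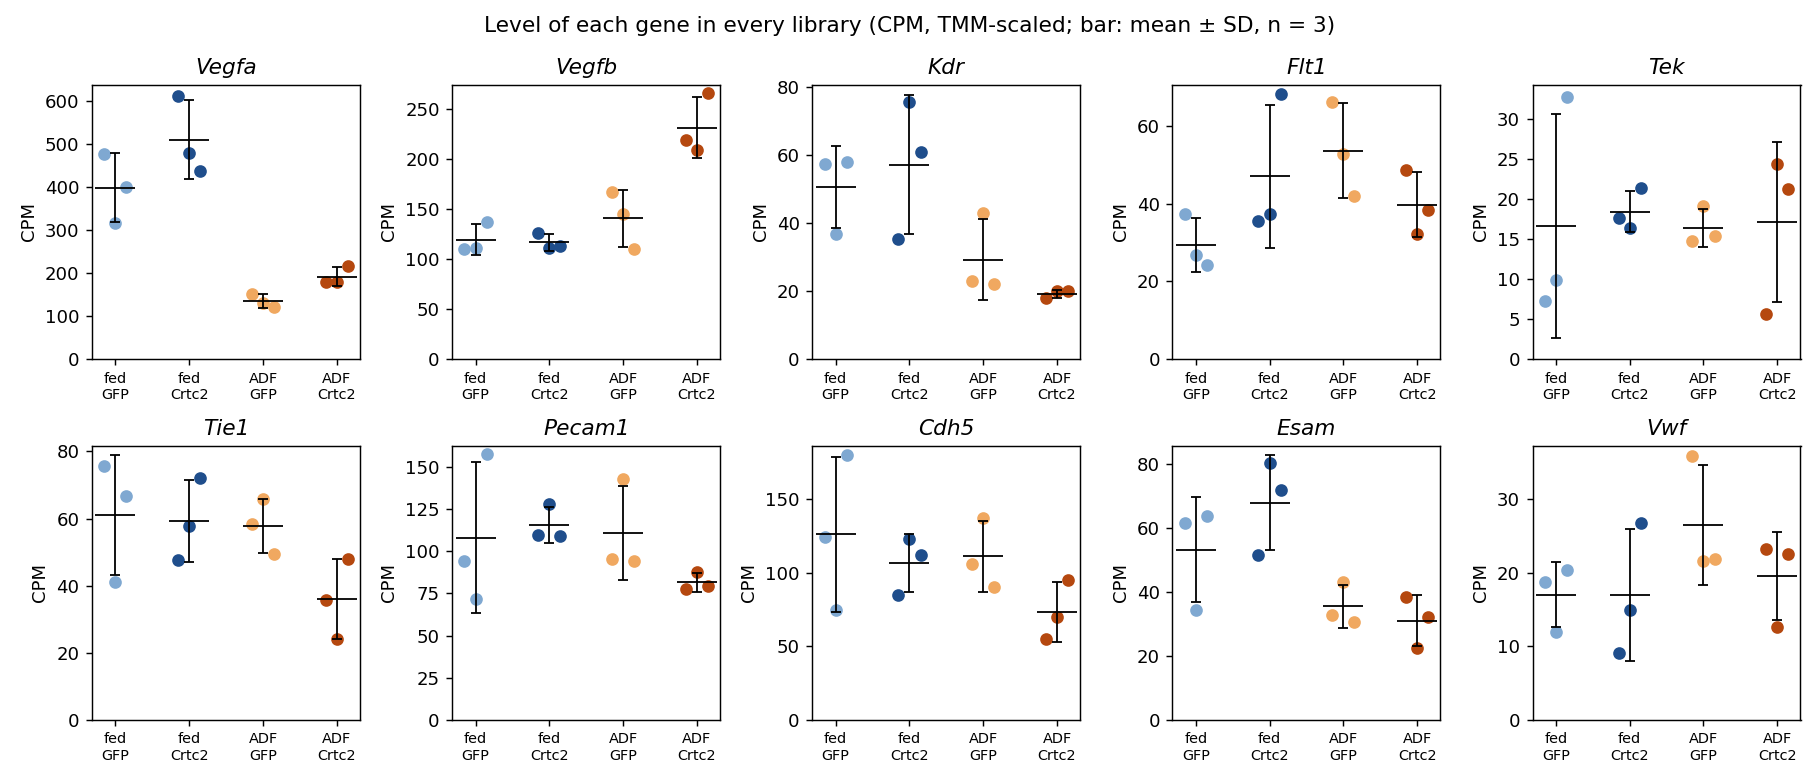
Level of each of the 10 genes (vertical axis, CPM, starting at 0) in each library, by group on the horizontal axis, with bars for the mean ± SD of 3 libraries. The 6 ADF libraries lie below the 6 fed ones for Vegfa, and the 3 ADF Crtc2 libraries lie above the rest for Vegfb.

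Kdr, the main signalling receptor for Vegfa, is at chromosome 5, 75932827 to 75978458 (minus strand). Fed GFP libraries had 57.4, 36.7 and 57.8 CPM and ADF GFP libraries 22.8, 42.9 and 22 CPM. Fed Crtc2 libraries had 35.2, 75.5 and 60.7 CPM and ADF Crtc2 libraries 17.8, 19.9 and 19.9 CPM. The diets did not overlap in Crtc2 muscle, whereas ADF GFP replicate 2 reached into the range of fed GFP muscle. Kdr fell 2.97-fold with ADF in Crtc2 muscle, from 57.1 ± 20.4 to 19.2 ± 1.2 CPM, a log2 fold change of -1.57 ± 0.32 with a 95% interval of -2.24 to -0.90 (adjusted p = 0.00239, edgeR). This call remained with any single library left out. In GFP muscle the difference was -0.79 ± 0.32 with an interval of -1.45 to -0.13, and it did not pass (adjusted p = 0.157, edgeR). The interaction was -0.78 ± 0.45 (adjusted p = 0.705, edgeR), so a difference between vectors in the diet response was not shown. Over both vectors Kdr fell with ADF by 1.18 ± 0.23 on the log2 scale (adjusted p = 0.000657, edgeR). These are bulk samples, in which fewer endothelial cells and less of a transcript per cell cannot be told apart.

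Flt1, the other VEGF receptor of the set (chromosome 5, 147561604 to 147726011, minus strand), passed no test at the main settings. Its values were 37.4, 26.8 and 24.3 CPM in fed GFP and 66.4, 52.9 and 42 CPM in ADF GFP muscle. With Crtc2 they were 35.7, 37.3 and 68.4 CPM when fed and 48.7, 32.2 and 38.5 CPM under ADF. The GFP groups did not overlap and the Crtc2 groups did. The difference with ADF in GFP muscle was 0.87 ± 0.30 with an interval of 0.25 to 1.48, short of the threshold (adjusted p = 0.0865, edgeR), though it passed when no filter on low counts was applied (adjusted p = 0.0492). In Crtc2 muscle it was -0.25 ± 0.29 (adjusted p = 0.705, edgeR). The interaction for Flt1 was -1.11 ± 0.42, with an unadjusted p of 0.0145 and an adjusted p of 0.555 (edgeR).

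The ratio of the 2 VEGF receptors also parted the diets. Per kilobase of exon, Kdr was 2.29, 2.05 and 3.56 times Flt1 in fed GFP and 1.47, 3.03 and 1.33 times in fed Crtc2 libraries. Under ADF the ratio was 0.515, 1.21 and 0.781 with GFP and 0.548, 0.927 and 0.773 with Crtc2. All fed libraries lay above all ADF libraries, with the nearest pair at 1.33 and 1.21. Kdr was itself called lower under ADF over both vectors, and how often ratios of other gene pairs part the diets was not computed. The size of the ratio also depends on exon lengths, taken over all annotated transcripts. Kdr made up 6.36 ± 0.903% of the per kilobase sum of the 8 endothelial genes in fed GFP and 3.92 ± 0.814% in ADF GFP muscle. The share was 6.55 ± 1.43% in fed Crtc2 and 3.66 ± 0.404% in ADF Crtc2 muscle. These shares and ratios are given without a test.

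**Figure D2:**
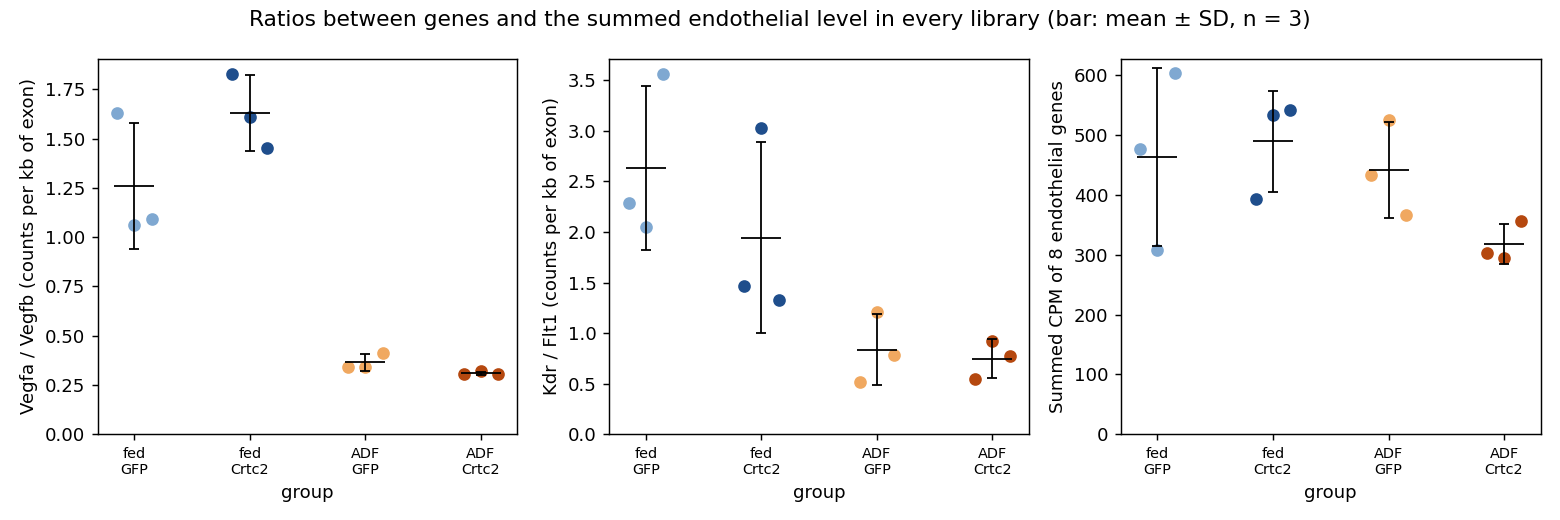
Ratio of Vegfa to Vegfb and of Kdr to Flt1 (counts per kilobase of exon, no unit) and summed CPM of the 8 endothelial genes in each library, by group, with bars for the mean ± SD of 3 libraries. Both ratios part the fed from the ADF libraries, while the summed level overlaps between the diets in GFP muscle.

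Tie1 and Tek, receptors of the angiopoietin system, passed no edgeR test at the main settings. Tie1 (chromosome 4, 118471191 to 118490061, minus strand) had 75.6, 41.2 and 66.6 CPM in fed GFP, 47.7, 57.7 and 72.1 CPM in fed Crtc2, 58.3, 65.7 and 49.5 CPM in ADF GFP and 35.8, 24.2 and 47.9 CPM in ADF Crtc2 muscle. The ADF Crtc2 libraries were the lowest group and overlapped fed Crtc2 muscle only between its lowest and their highest library. The log2 difference with ADF in Crtc2 muscle was -0.72 ± 0.28 (adjusted p = 0.109, edgeR). It passed when libraries were scaled by their totals (-1.0, adjusted p = 0.0301) or when genes needed a mean of at least 10 CPM (-0.83, adjusted p = 0.0348). Over both vectors it was -0.40 ± 0.20 (adjusted p = 0.175, edgeR), and it passed with the same 2 settings (-0.59, adjusted p = 0.0473, and -0.51, adjusted p = 0.0487). Tek (chromosome 4, 94739289 to 94874976, plus strand) ranged from 5.66 to 32.7 CPM over the 12 libraries. The highest Tek value was fed GFP replicate 3, against 7.28 and 9.9 CPM in the other fed GFP libraries. The diet difference for Tek in GFP muscle was -0.02 ± 0.52 with all libraries and 0.93 without that library (adjusted p = 0.364). It was also above 0 without ADF GFP replicate 1 (0.05) or 3 (0.03), so no direction can be given.

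The junction genes differed among themselves. Esam, at chromosome 9, 37528078 to 37538319 (plus strand), had 61.7, 34.4 and 63.7 CPM in fed GFP and 32.7, 43.1 and 30.7 CPM in ADF GFP muscle. In Crtc2 muscle it had 51.6, 80.4 and 72 CPM when fed and 38.5, 22.5 and 32.1 CPM under ADF. The Crtc2 groups did not overlap and the GFP groups did. Esam fell 2.19-fold with ADF in Crtc2 muscle, a log2 fold change of -1.13 ± 0.29 (adjusted p = 0.012, edgeR). The call was lost without ADF Crtc2 replicate 2 (-0.95, adjusted p = 0.0742) and without fed Crtc2 replicate 2 (-0.99, adjusted p = 0.0587). In GFP muscle the difference was -0.59 ± 0.28 (adjusted p = 0.259, edgeR), and over both vectors Esam fell by 0.86 ± 0.20 (adjusted p = 0.0041, edgeR).

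Pecam1 and Cdh5 passed no edgeR test with all 12 libraries. Pecam1, an adhesion protein of endothelium, platelets and leukocytes (chromosome 11, 106654217 to 106750628, minus strand), ranged from 71.5 to 158 CPM over the 12 libraries. Its group means were 108 ± 45 CPM in fed GFP, 116 ± 10.3 CPM in fed Crtc2, 111 ± 27.9 CPM in ADF GFP and 81.6 ± 5.44 CPM in ADF Crtc2 muscle. The ADF Crtc2 libraries lay below those of fed Crtc2 and of ADF GFP without overlap, but the diet difference with Crtc2 was -0.50 ± 0.25 (adjusted p = 0.211, edgeR). Cdh5, the cadherin of endothelial junctions (chromosome 8, 104101625 to 104144511, plus strand), had group means of 126 ± 52.6, 107 ± 19.9, 111 ± 24 and 73.1 ± 20.2 CPM in the same order. Its diet difference was -0.18 ± 0.27 in GFP and -0.54 ± 0.27 in Crtc2 muscle (adjusted p = 0.227 for the latter, edgeR). The 95% interval of Cdh5 in Crtc2 muscle ran from -1.11 to 0.03, so that a fall of about the size of that of Esam lies at its edge. Over both vectors the diet difference of Cdh5 was -0.36 ± 0.19 (adjusted p = 0.214, edgeR), and it passed without fed GFP replicate 2 (-0.53, adjusted p = 0.0381).

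Vwf, at chromosome 6, 125546774 to 125686679 (plus strand), also passed no test. Fed GFP libraries had 18.7, 12 and 20.4 CPM and ADF GFP libraries 35.9, 21.6 and 21.9 CPM, without overlap. Fed Crtc2 libraries spread from 9.15 to 26.8 CPM and took in the ADF Crtc2 values of 12.6 to 23.3 CPM. The difference with ADF was 0.64 ± 0.41 in GFP muscle (adjusted p = 0.434) and 0.20 ± 0.41 in Crtc2 muscle, both by edgeR.

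Read as a set, the genes gave these counts. For ADF against feeding in GFP muscle, 0 of 10 rose and 1 fell (Vegfa), where 7.12% of all genes tested were called, 4.06% higher and 3.06% lower. In Crtc2 muscle 1 of 10 rose (Vegfb) and 3 fell (Vegfa, Kdr and Esam), where 11.0% of all genes were called, 6.30% higher and 4.68% lower. Over both vectors the same 4 genes were called in the same directions, where 18.0% of all genes were called, 9.38% higher and 8.64% lower. Without overlap between the diets, 2 of 10 genes were higher (Flt1 and Vwf) and 1 lower in GFP muscle, against 14.3% and 11.3% of all genes. In Crtc2 muscle 1 was higher and 4 were lower (Vegfa, Kdr, Esam and Pecam1), against 14.8% and 15.7%. Over both vectors, with 6 libraries against 6, 0 were higher and 1 lower without overlap (Vegfa), against 5.63% and 4.07%. The 8 endothelial genes had a median log2 difference of -0.05 in GFP muscle and -0.52 in Crtc2 muscle, where the medians over all genes tested were -0.01 and -0.13. Scaling by library totals moved those medians over all genes to -0.11 and -0.43, and the share of calls that were higher from 57% to 44.4% in GFP and from 57.4% to 29.3% in Crtc2 muscle.

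**Figure D3:**
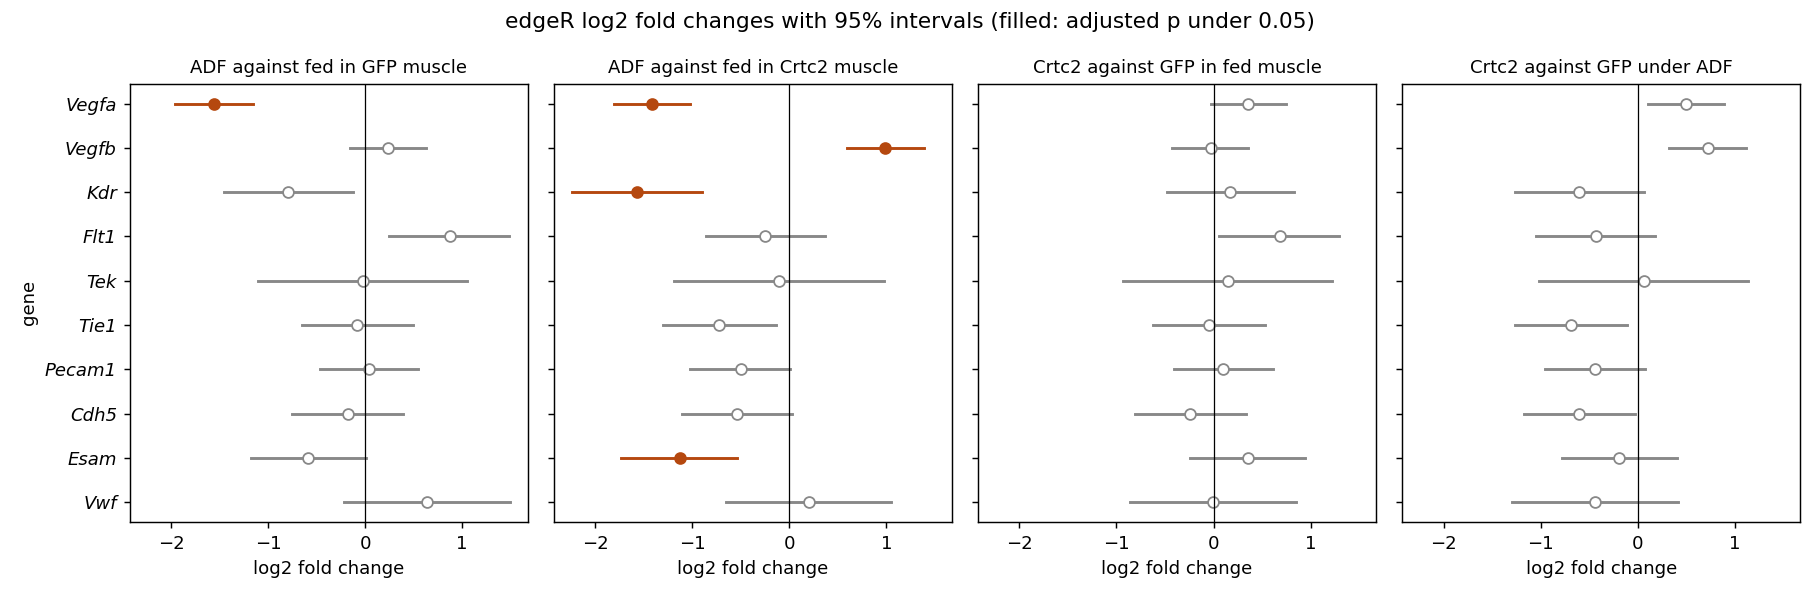
edgeR log2 fold changes of the 10 genes with 95% intervals (horizontal axis), 1 panel per comparison, filled where the adjusted p is under 0.05. Vegfa is left of 0 in both diet panels, Kdr and Esam are filled on the left and Vegfb on the right in Crtc2 muscle, and no point is filled in the vector panels.

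Crtc2 against GFP called none of the 10 genes in edgeR. These comparisons use the same libraries as those of the diets. In fed muscle 0 of the 10 genes passed in edgeR and 0 in DESeq2. Of all genes, 0% were called by edgeR and 0.358% by DESeq2 (81 of 22607). In edgeR 1 of the 10 genes had an unadjusted p under 0.05, against 871 of all 16007 genes tested. The fed groups overlapped for all 10, where 4.70% of all genes were higher and 3.84% lower without overlap. Of the 10 genes, the 1 with an unadjusted p under 0.05 was Flt1, with a log2 difference of 0.68 ± 0.30 and an adjusted p of 0.877 (edgeR). Under ADF 4 of 10 had an unadjusted p under 0.05 in edgeR, against 1809 of all 16007 genes tested. After adjustment 0 of 10 passed in edgeR, where 0.725% of all genes were called, 0.0750% higher and 0.650% lower. Vegfb was the nearest, at 0.72 ± 0.19 (adjusted p = 0.0862, edgeR), and it was the 1 gene that DESeq2 called (adjusted p = 0.00609), where DESeq2 called 692 of 22607 genes (3.06%). Tie1 had -0.69 ± 0.28 (adjusted p = 0.345) and Cdh5 -0.60 ± 0.27 (adjusted p = 0.415), both by edgeR. The ADF groups did not overlap for 5 genes, Vegfa and Vegfb higher and Kdr, Tie1 and Pecam1 lower with Crtc2, against 9.60% and 11.8% of all genes.

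Over both diets 0 of 10 genes differed between the vectors in edgeR and 0 in DESeq2. Of all genes, edgeR called 0.494%, 0.0250% higher and 0.469% lower, and DESeq2 2.13% (481 of 22607). In edgeR 3 of the 10 had an unadjusted p under 0.05, against 1624 of all 16007 genes tested. The difference was 0.43 ± 0.13 for Vegfa (adjusted p = 0.213), 0.34 ± 0.13 for Vegfb (adjusted p = 0.359) and -0.42 ± 0.19 for Cdh5 (adjusted p = 0.461), all by edgeR. Between the 6 libraries of each vector 0 of 10 genes were without overlap, against 0.100% of all genes higher and 0.337% lower. The interaction called 0 of 10 genes in edgeR and 0 in DESeq2. An unadjusted p under 0.05 in edgeR was found for 2 of the 10, against 1240 of all 16007 genes tested. Of all genes, edgeR called 0% and DESeq2 0.801% (181 of 22607). All 8 endothelial genes had an interaction below 0, and 6 to 8 did over the alternatives tried. Their median was -0.54, where that of all genes was -0.08. Such signs were not particular to endothelium. Only 0 of 8 fibroblast and 1 of 8 macrophage genes had an interaction above 0, with medians of -0.65 and -1.13. By contrast, 6 of 11 pericyte and smooth muscle genes and 9 of 10 fast fibre genes were above 0.

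The summed level of the 8 endothelial genes was 477, 307 and 603 CPM in fed GFP and 432, 525 and 366 CPM in ADF GFP muscle. It was 392, 533 and 542 CPM in fed Crtc2 and 302, 294 and 356 CPM in ADF Crtc2 muscle. The ADF Crtc2 libraries were below those of the other groups except for 1 fed GFP library at 307 CPM, while the other 3 groups overlapped. The fall of Kdr in Crtc2 muscle was accompanied by this lower sum, which includes Kdr itself. The part of the lower sum in the result was not tested. Per kilobase of exon the mean level over the 12 libraries was highest for the ligands, at 94.7 CPM for Vegfb and 71.9 CPM for Vegfa. Cdh5 followed with 24.8 CPM, Pecam1 with 16.7, Esam with 16.4 and Tie1 with 10.9 CPM. The remaining receptors were lower, Kdr at 4.32, Tek at 3.63 and Flt1 at 3.15 CPM, and Vwf was lowest at 1.24 CPM per kilobase. This order pools the groups and did not hold in each: Vegfa was above Vegfb in fed GFP (92.7 ± 18.8 against 74.4 ± 9.55 CPM per kilobase) and fed Crtc2 muscle (119 ± 21.4 against 72.6 ± 4.87). In ADF Crtc2 muscle Kdr, at 2.13 ± 0.133 CPM per kilobase, was below Tek at 3.61 ± 2.11 and Flt1 at 2.95 ± 0.616.

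Other endothelial markers added 1 gene that was called in both vectors, Egfl7. Of 18 further markers, 0 rose and 1 fell with ADF in GFP muscle, and 0 rose and 4 fell in Crtc2 muscle. Their median log2 differences were -0.25 and -1.08, with the medians over all genes as given above. Of all genes tested, 4.06% were called higher and 3.06% lower with ADF in GFP muscle, and 6.30% and 4.68% in Crtc2 muscle. These shares also belong beside the counts of each later list in these comparisons. Egfl7, a protein that endothelium secretes into its matrix, was at 116 ± 41.8 CPM in fed GFP and 33.1 ± 6.13 CPM in ADF GFP muscle. It was at 141 ± 27.9 CPM in fed Crtc2 and 33.8 ± 3.18 CPM in ADF Crtc2 muscle. Its fall measured -1.81 ± 0.25 with GFP (adjusted p = 9.23e-05) and -2.06 ± 0.26 with Crtc2 (adjusted p = 1.48e-05), by edgeR, and both passed with any single library left out.

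The other falls among these markers in Crtc2 muscle were those of Sox18, a transcription factor (-1.57 ± 0.43, adjusted p = 0.0197), Ecscr, a surface protein (-1.52 ± 0.45, adjusted p = 0.0303), and Cd34, a sialomucin that fibroblast progenitors also carry (-1.27 ± 0.32, adjusted p = 0.013), all by edgeR. Each lost its call when some single library was left out. For Sox18 this held without ADF Crtc2 replicate 2 (adjusted p = 0.0949) or fed Crtc2 replicate 2 (0.0624). For Cd34 it held without ADF Crtc2 replicate 1 (0.0705), ADF Crtc2 replicate 3 (0.0652) or fed Crtc2 replicate 2 (0.0629). Ecscr lost it without any 1 of the ADF Crtc2 replicates or without fed Crtc2 replicate 1 or 2 (0.0639 to 0.118). Over both vectors Robo4, another of these markers, was also called lower under ADF (-0.98 ± 0.27, adjusted p = 0.0149, edgeR). Cldn5, a tight junction protein of endothelium, was at 19 ± 6.26 CPM in fed GFP, 19 ± 5.37 CPM in fed Crtc2, 21.8 ± 4.18 CPM in ADF GFP and 18.9 ± 8.49 CPM in ADF Crtc2 muscle.

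Among 6 other VEGF ligands, receptors and co-receptors that were tested, 0 were called with ADF in GFP muscle and 1 fell in Crtc2 muscle. That gene was Nrp1, a co-receptor that binds Vegfa beside Kdr (-0.96 ± 0.31, adjusted p = 0.0465, edgeR), and its call was lost in 8 of 12 fits that left out 1 library, with an adjusted p of 0.318 without fed Crtc2 replicate 2 and 0.229 without ADF Crtc2 replicate 1. Of 6 angiopoietins and regulators of the Tie receptors, 0 were called in either vector. Of 11 tested tip cell and Notch genes, some of which VEGF is known to induce in endothelium, 0 were called in GFP muscle and 1 fell in Crtc2 muscle. Aplnr, the apelin receptor, was at 61.1 ± 39.6 CPM in fed GFP and 26.4 ± 17.2 CPM in ADF GFP muscle, and at 74.3 ± 16.1 CPM in fed Crtc2 and 10.9 ± 4.07 CPM in ADF Crtc2 muscle. The fall with Crtc2 was -2.77 ± 0.52 (adjusted p = 0.00275, edgeR) and passed with any single library left out. Over both vectors Dll4, the Notch ligand of tip cells, also fell (-1.04 ± 0.35, adjusted p = 0.0411, edgeR).

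Among genes known to regulate Vegfa, directly or through the hypoxia inducible factors, those past the test were higher under ADF. Of 10 tested, 2 rose and 0 fell in GFP muscle, and 4 rose and 0 fell in Crtc2 muscle. Of all genes tested, 4.06% and 6.30% were called higher in these comparisons. Epas1, the hypoxia inducible factor 2 alpha that endothelium carries in quantity, rose from 105 ± 29.8 to 236 ± 22.4 CPM in GFP and from 129 ± 11.1 to 264 ± 28.3 CPM in Crtc2 muscle. Its log2 fold changes were 1.17 ± 0.20 (adjusted p = 0.000687) and 1.03 ± 0.20 (adjusted p = 0.0014), by edgeR. Egln1 rose by 0.62 ± 0.18 (adjusted p = 0.0412) and 1.07 ± 0.18 (adjusted p = 0.000436), and Egln3 rose in Crtc2 muscle by 1.33 ± 0.39 (adjusted p = 0.0273), by edgeR. Both encode prolyl hydroxylases, which mark hypoxia inducible factors for breakdown, so they are not drivers of Vegfa. Esrra, a nuclear receptor of oxidative metabolism, rose in Crtc2 muscle by 0.79 ± 0.20 (adjusted p = 0.012, edgeR). Scaling by library totals ended the calls of Egln3 and Esrra (adjusted p = 0.112 and 0.0879), and that of Egln1 in GFP muscle was lost in 7 of 12 fits without 1 library (0.174 without ADF GFP replicate 1), with DESeq2's size factors (0.0533), with no filter (0.0547) and with the replicate block (0.0589). Egln3 also lost its call without ADF Crtc2 replicate 1 (0.22) and fed Crtc2 replicate 2 or 3 (0.0516 and 0.121), and Esrra without ADF Crtc2 replicate 3 (0.112) and fed Crtc2 replicate 2 (0.0595). Hif1a differed by 0.30 ± 0.39 and Ppargc1a, a coactivator known to drive Vegfa in muscle, by 0.51 ± 0.38 in GFP muscle, and by -0.33 ± 0.39 and 0.56 ± 0.38 in Crtc2 muscle, none of them past the test.

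**Figure D4:**
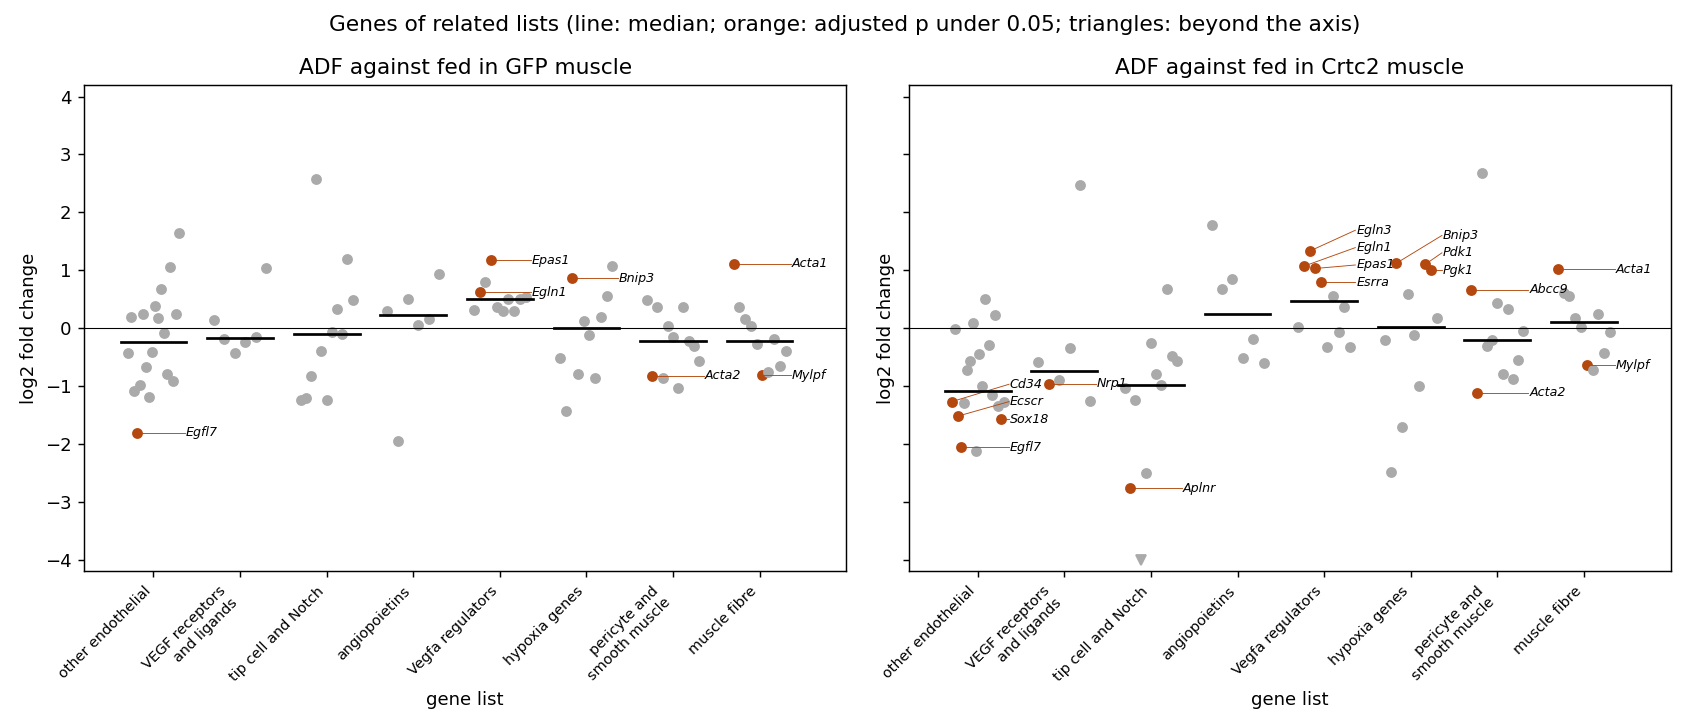
edgeR log2 fold changes of genes in related lists (vertical axis) for ADF against feeding, in GFP muscle on the left and Crtc2 muscle on the right, where each point is a gene, black lines are list medians and named orange points passed the test. The median of the 18 other endothelial markers is at -0.25 on the left and -1.08 on the right. The named genes of the Vegfa regulator list, with Egln1 and Egln3 among them, lie above 0.

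Markers of the other cell types of muscle were set beside these results. The 11 pericyte and smooth muscle genes summed to 573 to 845 CPM in fed GFP and 550 to 720 CPM in ADF GFP libraries. With Crtc2 they summed to 377 to 696 CPM in fed and 503 to 535 CPM in ADF libraries. These sums include Abcc9, which muscle also carries. It was at 156 ± 13.8 CPM in fed GFP and 218 ± 9.99 CPM in ADF GFP muscle. With Crtc2 it was at 141 ± 31.7 CPM in fed and 223 ± 22.2 CPM in ADF muscle. The median log2 difference of the 11 genes was -0.23 with GFP and -0.2 with Crtc2, with 4 above 0 in each. Of the 11 genes, 0 rose and 1 fell with ADF in GFP muscle (Acta2), and 1 rose (Abcc9) and 1 fell (Acta2) in Crtc2 muscle. Leaving out 1 library ended the call of Acta2 in GFP muscle in 7 of 12 fits (adjusted p = 0.242 without fed GFP replicate 1) and that of Abcc9 without ADF Crtc2 or fed Crtc2 replicate 1 (0.117 and 0.138). The 8 fibroblast genes summed to 1040 to 2360 CPM in fed GFP and 2500 to 4250 CPM in ADF GFP, and to 748 to 1890 CPM in fed Crtc2 and 1270 to 1590 CPM in ADF Crtc2 libraries. Of these, 2 rose in GFP muscle, Gsn and Dcn, and 1 in Crtc2 muscle, Gsn. The calls of Dcn (4 of 12 fits, adjusted p up to 0.148) and of Gsn in Crtc2 muscle (3 of 12, up to 0.0715) were lost when certain libraries were left out, and that of Dcn also with library totals (0.111). The higher fibroblast sum in ADF GFP muscle stood beside the endothelial values there, and its part in them was not tested.

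The 8 macrophage genes summed to 226 to 299 CPM in fed GFP, 112 to 206 CPM in fed Crtc2, 298 to 520 CPM in ADF GFP and 84.9 to 146 CPM in ADF Crtc2 muscle. With Crtc2 against GFP under ADF 3 of the 8 were called lower by edgeR, against 0.650% of all genes tested. They were Csf1r (-2.00 ± 0.33, adjusted p = 0.00646, edgeR), Cd68 and C1qc. In this comparison Kdr, Tie1 and Pecam1 were lower without passing. The call of Cd68 was lost without ADF GFP replicate 3 (0.102), ADF Crtc2 replicate 1 (0.129) or ADF Crtc2 replicate 2 (0.0785), and that of C1qc without ADF GFP replicate 3 (0.0941) or ADF Crtc2 replicate 1 (0.102). Over both diets 3 of the 8 macrophage genes were also called lower with Crtc2, against 0.469% of all genes tested. Macrophages carry Pecam1 too, and their part in its values was not tested. The 6 lymphatic genes summed to 10.6 to 48.2 CPM over the 12 libraries, and 1 of them rose with ADF in GFP muscle (Lyve1, adjusted p = 0.0161, edgeR), a call lost without ADF GFP replicate 1 (0.0508) or 3 (0.0577). Lyve1 had 1 count over the 3 fed GFP libraries and 435 over the 3 ADF GFP libraries, so the call rests on a value at the floor. There 5 of the 6 genes had a log2 difference above 0, while Ccl21a was at 27.3 ± 14.9 CPM in fed GFP and 10.2 ± 7.16 CPM in ADF GFP muscle. The 9 platelet and red cell genes summed to 73.5 to 404 CPM, with Ppbp at 0 in all libraries other than those of fed GFP muscle and Gp9 at 0 in all other than those of ADF GFP muscle. The 5 adipocyte genes summed to 8.15 to 62.2 CPM, with Lep at 0 in the same 3 groups as Ppbp, and 1 of them, Cfd, rose with ADF in GFP muscle (adjusted p = 0.0348, edgeR), a call lost in 4 of 12 fits without 1 library (up to 0.124) and with library totals (0.0549). The 4 satellite cell genes summed to 4.31 to 23.3 CPM, with 0 called.

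Genes with the most similar profile were sought among 11079 genes, by the root mean square difference of log2 CPM over the 12 libraries after centring each gene. For Vegfa, whose own SD over the libraries was 0.79, the nearest were Crhr2, a urocortin receptor (0.21), Usp54 (0.22) and Taz, the cardiolipin enzyme tafazzin (0.23). Crhr2 was at 103 ± 20.7 CPM in fed GFP, 112 ± 23.7 CPM in fed Crtc2, 40 ± 5.75 CPM in ADF GFP and 51.1 ± 11.4 CPM in ADF Crtc2 muscle, the same order of group means as Vegfa. For Kdr, with an SD of 0.71, the nearest were Nfatc2, a transcription factor of calcium signalling (0.28), Aldh9a1, an aldehyde dehydrogenase (0.30), and Zim1 (0.30). Nfatc2 was at 23.5 ± 2.52 CPM in fed GFP, 26.9 ± 4.14 CPM in fed Crtc2, 17.9 ± 6.99 CPM in ADF GFP and 10.7 ± 1.8 CPM in ADF Crtc2 muscle. None of the 6 nearest genes belonged to the endothelial or VEGF lists.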

How the data were processed

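RNA of 12 tibialis anterior libraries was sequenced. The deposited values are raw counts per gene, whole numbers without normalization, and the labels gave each library its group. Per the submitters' processing notes, the builds were GRCm38 and mm10 and the tools DESeq2 1.18.1, Subread 1.6.1 with featureCounts, SAMtools 1.7 and HISAT2 2.0.5. Their roles, the annotation release, the strand setting and the treatment of duplicates are not given in the sources used here, so reads of overlapping genes may be shared.

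Tests were edgeR 4.0.16 in R 4.3.3: filterByExpr, TMM scaling, a robust quasi-likelihood fit of 4 group means over 12 libraries, and Benjamini-Hochberg adjustment over 16007 genes with a threshold of 0.05. There were 7 comparisons: ADF against feeding with each vector, Crtc2 against GFP under each diet, their interaction, and both means. SE was taken as log2 fold change over the root of its F statistic. CPM uses TMM-scaled totals, and log2 CPM a prior count of 2. Exon lengths and positions are from GENCODE M21 on GRCm38, and promoters from RefSeq. A count of 3 in a library corresponds to 0.0814 to 0.13 CPM. An exact test of 3 against 3 libraries cannot go below a two-sided p of 0.1.

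The members and gene lists (134 genes in 15 lists, of which 133 were in the table) were chosen with earlier results of these data known. Named were all members, Crtc2, called genes of the other lists, and the 3 nearest profiles to Kdr and Vegfa. At most 4 called genes per list and comparison were to be named, and not every gene within that limit was. Cldn5, Hif1a, Ppargc1a and Ccl21a were named after their values were seen. Alternatives were other size factors, library totals, no filter, a mean of at least 10 CPM, DESeq2 1.42.0, a replicate block, and leaving out each library. The tests were tried on simulated data.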

Additional observations from a re-analysis of the deposited data

How the results depend on the processing

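The calls of Vegfa in both vectors and of Kdr and Vegfb in Crtc2 muscle held under each of the other 6 settings and with each of the 12 libraries left out. Of the 10 genes, 2 passed with ADF in GFP muscle when no filter was applied (Vegfa and Flt1), 1 passed for Crtc2 against GFP under ADF in DESeq2 (Vegfb), and 5 passed with ADF over both vectors with library totals and with a mean of at least 10 CPM (Tie1 added). With a library left out, the number called with ADF was 1 to 1 in GFP muscle, 3 to 4 in Crtc2 muscle and 4 to 5 over both vectors (Cdh5 added without fed GFP replicate 2), and 0 to 0 in the other comparisons.

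The changes of sign were all of genes that did not pass. For ADF in GFP muscle, Pecam1 became -0.02 with DESeq2's size factors, -0.08 with library totals, -0.08 with a mean of at least 10 CPM and -0.02 in DESeq2. Vwf became -0.07 with library totals in Crtc2 muscle. For Crtc2 against GFP under ADF, Tek became -0.13 with library totals. With 1 library left out, the log2 difference with ADF in GFP muscle ran from -0.38 to 0.93 for Tek, -0.33 to 0.1 for Tie1, -0.22 to 0.42 for Pecam1 and -0.49 to 0.16 for Cdh5. In Crtc2 muscle it ran from -0.42 to 0.12 for Flt1, -0.46 to 0.3 for Tek and -0.1 to 0.69 for Vwf. For Crtc2 against GFP it ran in fed muscle from -0.08 to 0.43 for Kdr, -0.21 to 1.1 for Tek, -0.27 to 0.14 for Tie1, -0.13 to 0.48 for Pecam1, -0.51 to 0.11 for Cdh5, -0.5 to 0.29 for Vwf and -0.09 to 0.08 for Vegfb, and under ADF from -0.29 to 0.47 for Tek.

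Whether the replicate numbers of the labels pair the libraries cannot be settled from these values. Of 18 same-numbered pairs, 1 had a correlation of deviations over 0.1 (-0.038 to 0.134), where other pairs ran from -0.123 to 0.052. Yet 8 of 12 libraries were nearest to their own number. With the replicate block, 1 and 4 of the 10 genes were called with ADF in GFP and Crtc2 muscle, 4 over both vectors and 0 in the other comparisons, as without it. The block gave Tek 0.22 with ADF in GFP muscle and -0.13 for Crtc2 against GFP under ADF, Vwf 0 for Crtc2 against GFP in fed muscle, and ended the calls of Ecscr in Crtc2 muscle (adjusted p = 0.0536) and Egln1 in GFP muscle (0.0589).

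Over all genes, DESeq2 called 1898 genes with ADF in GFP and 2811 in Crtc2 muscle, 81 between the vectors in fed and 692 in ADF muscle, 181 for the interaction, and 3860 and 481 for the means over vectors and diets, where edgeR called 1140, 1758, 0, 116, 0, 2884 and 79. With 3 libraries per group, the intervals of the genes not called are wide, and a missed threshold does not show that levels were equal.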

Other observations

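Other genes of vessel growth also differed between the diets. Of 10 inhibitors of angiogenesis, 2 rose and 0 fell with ADF in GFP muscle, and 0 were called in Crtc2 muscle. Timp3, a metalloproteinase inhibitor that also binds Kdr, rose from 28.3 ± 5.41 to 74.6 ± 21.5 CPM in GFP muscle (log2 fold change 1.40 ± 0.29, adjusted p = 0.00438, edgeR). Vash1, an inhibitor that endothelium itself makes, had 0 counts in the 3 fed GFP libraries and 553 in the 3 ADF GFP libraries. It had 183 counts in fed Crtc2 and 252 in ADF Crtc2 libraries. The edgeR interaction did not pass for Timp3 (adjusted p = 0.8) or Vash1 (adjusted p = 0.321), so a difference between the vectors in these diet responses was not shown by that test.

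Of 10 hypoxia inducible genes, 1 rose and 0 fell with ADF in GFP muscle and 3 rose and 0 fell in Crtc2 muscle. The list was split in sign, with 5 of 10 genes above 0 in each vector and medians of 0 and 0.02. Over both vectors 3 were called higher and 1 lower, against 9.38% and 8.64% of all genes tested. Bnip3, which promotes the removal of mitochondria, rose in both (0.86 ± 0.23, adjusted p = 0.0259, and 1.12 ± 0.23, adjusted p = 0.00268, edgeR), though the call in GFP muscle was lost in 5 of 12 fits without 1 library (adjusted p up to 0.115, without fed GFP replicate 1 or 3). Pgk1, a glycolytic enzyme, and Pdk1, which restrains pyruvate use, rose in Crtc2 muscle (1.00 ± 0.20 and 1.10 ± 0.25). Vegfa is itself a well known hypoxia target and fell in the same comparisons. Among smooth muscle genes Acta2, the actin of the vessel wall, fell with ADF in GFP muscle (-0.82 ± 0.24, adjusted p = 0.0411) and in Crtc2 muscle (-1.12 ± 0.24, adjusted p = 0.00381), by edgeR. Abcc9, a subunit of the potassium channel of vessel wall and muscle, rose in Crtc2 muscle by 0.66 ± 0.18 (adjusted p = 0.022, edgeR), a call that scaling by library totals ended (adjusted p = 0.23). With that scaling the calls of Bnip3 in GFP muscle and Pdk1 were also lost (adjusted p = 0.0708 and 0.0523).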
